A study of Mus musculus with 5 samples.

Results

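The genes of 10 B-lineage transcription factors, Ebf1, Pax5, Tcf3, Ikzf1, Ikzf3, Foxo1, Bach2, Spib, Irf4 and Irf8, were followed through sorted mouse bone marrow cells. They were taken as a named list, 10 of the 27998 genes in the count tables, and each was found in all 5 libraries. The 2 aged libraries (replicates 2 and 3) came from mice over 20 months old and the 3 young libraries (replicates 1, 2 and 3) from mice of 10 to 12 weeks. All mice were of the Nes-GFP strain, which carries a green fluorescent reporter for Nestin, and no library of another genotype or treatment was used. The sort kept marrow cells of the endosteum (the inner bone surface) that lacked CD45, found on nearly every blood cell type, and carried CD31 (PECAM1, present on endothelium). The libraries were made to compare aged with young endothelium, yet endothelial markers led in only 21 of 2116 kept cells, while 1894 carried B-lineage genes. Cdh5, a junction gene that defines endothelium, had a median of 1.25 CPM (the UMIs of a gene in a class of cells, scaled to 1000000 UMIs of all genes) in the resting B-lineage cells of the 5 libraries, against 2408 CPM for Cd79a, a signalling chain of the receptor on B cells. Ptprc, which encodes the CD45 that the sort selected against, stood at 105 to 151 CPM in the same cells.

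B cells arise from marrow progenitors under the control of a layered set of transcription factors. Tcf3 (E2A), Ebf1 and Foxo1 act early and open the B-lineage program, and Pax5 then commits cells to it and represses genes of other lineages. Ikzf1 (Ikaros) and Ikzf3 (Aiolos) are zinc finger proteins that act with the signals from the pre-B cell receptor, Irf4 and Irf8 are interferon regulatory factors that help end the dividing pre-B stage, Spib is an ETS factor related to PU.1, and Bach2 is a repressor that holds back the plasma cell program and guards the pre-B checkpoint. The cells analysed span that path: a stage with the surrogate light chain, which stands in for the light chain in the pre-B cell receptor, a stage in which the Rag recombinase still acts, and a later stage with MHC class II.

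Stages were set without any of the 10 genes. Each cell was thinned at random to 1000 UMIs (unique molecular identifiers, 1 for each captured RNA molecule) and gated on marker genes. The surrogate light chain stage held at least 2 UMIs of Vpreb1, Vpreb2, Igll1 or Dntt. The MHC class II stage held at least 3 UMIs of Cd74, H2-Aa, H2-Ab1 or H2-Eb1. Of cells below both limits, those with a UMI of Cd2 or Ms4a1 made up the Cd2/Ms4a1 stage, and those with none of these and a UMI of Rag1 or Rag2 the Rag stage. Among 1270 resting B-lineage cells these 4 stages held 402 (surrogate light chain), 65 (Rag), 304 (Cd2/Ms4a1) and 218 (MHC class II) cells, 12 cells passed both limits and 269 had no stage. The other 624 B-lineage cells had UMIs of at least 2 of 10 cell cycle genes and were called dividing. Levels below use all UMIs of a class in a library and are given in CPM.

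The libraries differed in depth and makeup. Total UMIs were 935656 to 5900751 for each library, and the median kept cell held 1889.5 to 4212.5 UMIs. In young replicate 1, 74.3% of B-lineage cells were dividing and 11.7% of kept cells were myeloid, against 8.09% to 11.7% dividing in the other 4 libraries. Its cells gated as resting also held more of the 10 cell cycle genes, 1843 CPM against 116 to 398 CPM elsewhere, and their part in the levels of the 10 genes was not tested. Of the 10 genes, 6 were lowest in young replicate 1 among the resting B-lineage sums. Some results below are therefore also given without it, or as a range with each library left out in turn. In all, 26 barcodes occurred in more than 1 library, 5 of them among kept cells. Xist, which marks female cells, had 0 UMIs in aged replicate 2 and young replicate 2 and 1118 to 8562 in the other 3 libraries, so each age group holds libraries of both sexes. The labels number the replicates and do not say which mice or pools they came from, so p-values measure the spread between these libraries.

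The 10 genes lie on 7 chromosomes of the mouse build GRCm38 (GENCODE annotation, whole gene spans). Ebf1 (chr11:44617317-45008091, plus strand), Ikzf1 (chr11:11685003-11772926, plus strand) and Ikzf3 (chr11:98464902-98546031, minus strand) share chromosome 11. Pax5 (chr4:44524757-44710487, minus strand) and Bach2 (chr4:32238804-32586108, plus strand) share chromosome 4. Foxo1 lies at chr3:52268336-52353221 (plus strand), Spib at chr7:44525993-44532071 (minus strand), Irf8 at chr8:120736358-120756694 (plus strand), Tcf3 at chr10:80409514-80433647 (minus strand) and Irf4 at chr13:30749226-30766976 (plus strand). Another annotated gene overlaps 7 of the 10, on the same strand for 5 and on the opposite strand for 5, and the sources used here do not say whether strand was used in counting, so reads of such partners could be counted with or withheld from those 7.

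The promoters of the 2 pairs whose levels moved most closely together are shown here, Ebf1 with Foxo1 and Spib with Bach2. The windows run from 250 bases before to 50 after the RefSeq start of a transcript on GRCm38.p6, 5′ to 3′ along the gene's own strand, at chr11:44617850-44618149 (plus) for Ebf1, chr3:52268087-52268386 (plus) for Foxo1, chr7:44532022-44532321 (minus) for Spib and chr4:32417185-32417484 (plus) for Bach2. Capitals mark the only match in each window to any of 9 short motifs, searched on both strands.
Ebf1: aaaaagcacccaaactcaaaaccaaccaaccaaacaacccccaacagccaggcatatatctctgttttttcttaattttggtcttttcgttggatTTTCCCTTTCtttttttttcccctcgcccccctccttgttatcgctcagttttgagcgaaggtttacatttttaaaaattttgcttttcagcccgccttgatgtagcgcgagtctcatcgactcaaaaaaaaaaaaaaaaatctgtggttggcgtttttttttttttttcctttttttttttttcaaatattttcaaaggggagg
Foxo1: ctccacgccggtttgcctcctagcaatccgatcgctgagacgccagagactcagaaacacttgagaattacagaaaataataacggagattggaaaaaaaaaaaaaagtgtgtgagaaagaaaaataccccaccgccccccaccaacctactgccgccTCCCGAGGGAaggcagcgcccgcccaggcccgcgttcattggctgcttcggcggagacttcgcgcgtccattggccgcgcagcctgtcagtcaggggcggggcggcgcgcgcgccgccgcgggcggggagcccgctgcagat
Spib: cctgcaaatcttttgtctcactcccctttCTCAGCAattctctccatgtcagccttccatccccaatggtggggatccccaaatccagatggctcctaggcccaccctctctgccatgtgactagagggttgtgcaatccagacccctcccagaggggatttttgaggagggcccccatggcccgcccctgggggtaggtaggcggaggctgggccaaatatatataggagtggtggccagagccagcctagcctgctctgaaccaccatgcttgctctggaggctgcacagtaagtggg
Bach2: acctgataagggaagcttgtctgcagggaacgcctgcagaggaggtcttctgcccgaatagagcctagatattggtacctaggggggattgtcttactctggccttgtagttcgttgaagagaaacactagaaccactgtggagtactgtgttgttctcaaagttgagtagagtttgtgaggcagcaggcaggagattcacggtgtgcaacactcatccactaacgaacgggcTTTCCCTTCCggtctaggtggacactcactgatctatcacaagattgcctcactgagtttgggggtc
The Ebf1 window shown held the interferon regulatory factor repeat (GAAA, 2 bases of any kind, GAAA), which 3.44% of all 32851 mouse promoter windows of this length hold. The Foxo1 window held the palindrome read by EBF proteins (TCCC, 2 bases of any kind, GGGA), present in 0.904% of all windows. The Spib window held the BACH and MAF core TGCTGAG, present in 7.84%, and the Bach2 window the ETS-IRF composite (GGAA, 2 bases of any kind, GAAA), present in 2.72%. The other motifs were the E-boxes CAGGTG (20.2% of all windows) and CAGCTG (16.3%), the FOXO motif TGTTTAC (3.65%), the PU.1-type ETS motif GAGGAAGT (3.20%) and the Ikaros-type motif TGGGAA (25.6%). The Ebf1, Bach2 and Spib matches read on the strand opposite to the one printed, so the capitals there are the reverse complement of the motif. A window was found for 9 of the 10 genes, 12 windows in all, and Ikzf3 had none in the table. Ebf1 has a second window (chr11:44619978-44620277, plus), which holds no interferon regulatory factor repeat and 1 Ikaros-type match. The Ebf1 window printed lies nearer to the annotated start of the gene. The Bach2 window lies inside the annotated span of Bach2, which begins at chr4:32238804, so it marks a transcript start other than that one. These matches are descriptions of the letters and no factor binding was measured.

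Spib, Ikzf3, Bach2 and Irf4 were higher at the MHC class II stage than at the surrogate light chain stage in all 5 libraries, by 1.04 to 2.71 on the log2 scale, while Ebf1, Tcf3, Foxo1 and Pax5 did not pass the test. In a fit of 19 sums (library by stage, library as a block) with edgeR's quasi-likelihood test, 6 of the 10 genes rose at adjusted p under 0.05 and 0 fell, beside 19.4% of the 3026 genes tested passing in either direction and 8.96% (271 genes) rising, with 315 genes falling. The median change of the 10 genes was 0.54 log2 units, against -0.02 for all genes tested. Genes used in gating were not left out of this fit or of those below. The shares of all genes passing can thus hold genes whose difference the gates set.

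**Figure D1:**
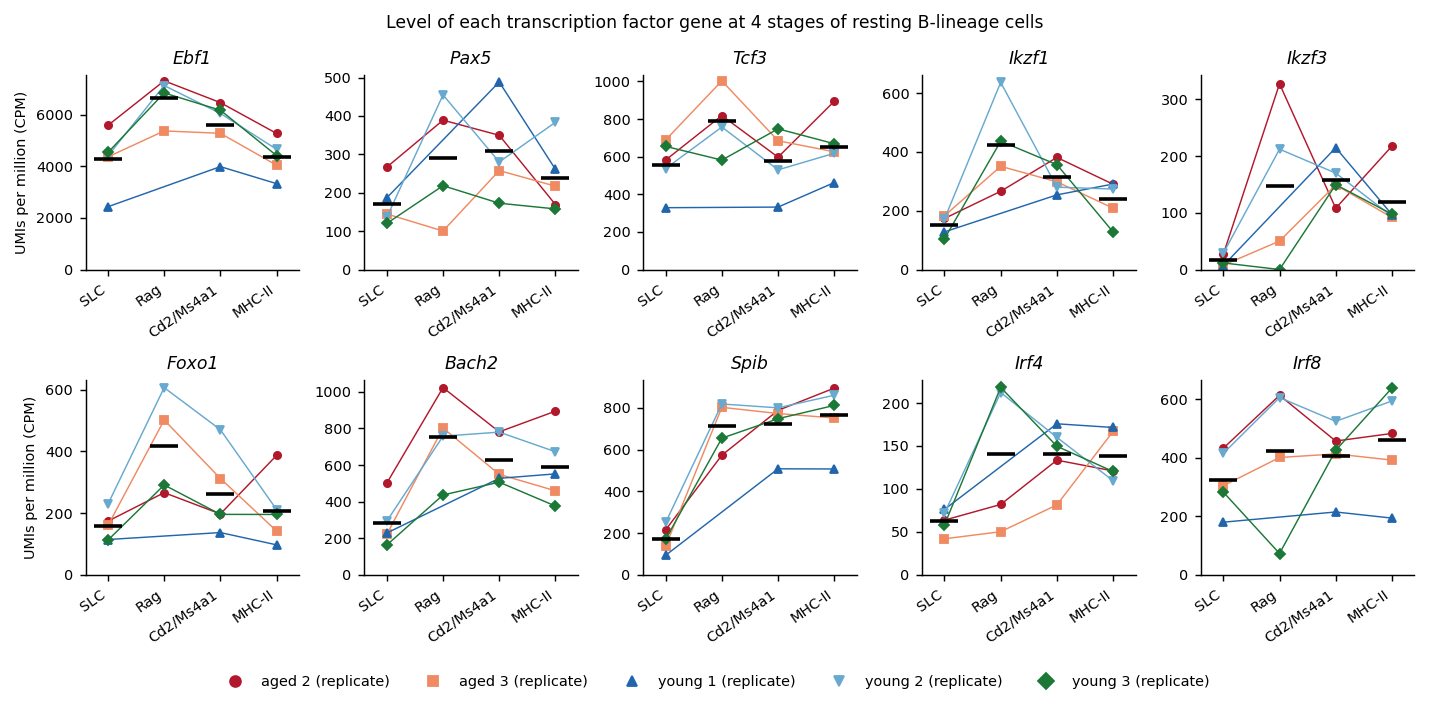
Level of each of the 10 genes (CPM, linear axis from 0) at 4 stages of resting B-lineage cells, in the order surrogate light chain (SLC), Rag, Cd2/Ms4a1 and MHC class II (MHC-II). Lines join the sums of a library, black bars are means over libraries, and young replicate 1 has no Rag point because it held under 10 such cells. Spib, Bach2 and Ikzf3 step up after the surrogate light chain stage, while the mean of Ebf1 is highest at the Rag stage, at 6659 CPM over 4 libraries.

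Spib, an ETS factor of the B and plasmacytoid dendritic lineages, held 895 and 751 CPM in aged replicates 2 and 3 at the MHC class II stage. In young replicates 1, 2 and 3 it held 507, 861 and 812 CPM there. At the surrogate light chain stage it stood at 215 and 137 CPM in the aged and at 93.4, 251 and 170 CPM in the young libraries. The lowest library of the later stage was thus above the highest of the earlier one, and the log2 fold change was 2.14 ± 0.16 (SE; edgeR adjusted p = 2.0e-17). Spib passed under all 12 alternatives run for this contrast, with values of 2.05 to 2.21. The share of cells with a Spib UMI after thinning was 47.4% ± 4.83 at the MHC class II stage and 17.3% ± 4.70 at the surrogate light chain stage (SD, n = 5).

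Ikzf3, which encodes Aiolos, had the largest fold change of the 10 genes and the fewest UMIs. It held 218 and 91.8 CPM in the aged and 96.9, 93.9 and 97.7 CPM in the young libraries at the MHC class II stage. At the surrogate light chain stage, only 22 UMIs were counted in 402 cells, which gave 26.9 and 7.61 CPM in the aged and 6.92, 28.6 and 11.6 CPM in the young libraries. These ranges do not overlap, and the log2 fold change was 2.71 ± 0.39 (edgeR adjusted p = 9.9e-08). Ikzf1, its relative that encodes Ikaros, changed less, by 0.58 ± 0.21 with edgeR adjusted p = 0.041. That call was lost in 10 of 12 alternatives, and leaving out 1 library in turn gave adjusted p from 0.036 to 0.198.

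Bach2, the repressor of the plasma cell program, was higher at the MHC class II stage within each library. It held 895 and 459 CPM in the aged and 552, 673 and 376 CPM in the young libraries, against 501 and 221 CPM in the aged and 228, 294 and 163 CPM in the young libraries at the surrogate light chain stage. The libraries overlapped between stages because aged replicate 2 was high in both, and with library as a block the log2 fold change was 1.04 ± 0.16 (edgeR adjusted p = 7.5e-07). Irf4, which drives light chain recombination and later plasma cell fate, held 121 and 167 CPM in the aged and 172, 110 and 120 CPM in the young libraries, against 63.6 and 41.9 CPM in the aged and 76.1, 71.6 and 58.1 CPM in the young libraries. No library overlapped between the stages, and the log2 fold change was 1.10 ± 0.26 (edgeR adjusted p = 0.00087). Irf8, a factor shared by B and myeloid cells, rose by 0.50 ± 0.18 (edgeR adjusted p = 0.040), but the call was lost in 8 of 12 alternatives, and without young replicate 3 the value was 0.27 (adjusted p = 0.368).

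The early regulators did not pass the test between these ends of the path. Ebf1 averaged 4341 ± 723 CPM at the MHC class II stage and 4263 ± 1140 CPM at the surrogate light chain stage (SD, n = 5), with a log2 fold change of 0.02 ± 0.11 (edgeR adjusted p = 0.938) whose sign turned under 6 alternatives. Tcf3 averaged 654 ± 156 CPM at the MHC class II stage and 558 ± 142 CPM at the surrogate light chain stage, a log2 fold change of 0.18 ± 0.15 (adjusted p = 0.449 by edgeR). Foxo1, the forkhead factor that sustains Rag and Il7r expression, averaged 206 ± 111 CPM at the MHC class II stage and 158 ± 48.3 CPM at the surrogate light chain stage, and its log2 fold change of 0.18 ± 0.23 had an adjusted p of 0.666 by edgeR. Pax5, the commitment factor, averaged 238 ± 91.2 CPM at the MHC class II stage and 171 ± 59.0 CPM at the surrogate light chain stage, a log2 fold change of 0.49 ± 0.21 (edgeR adjusted p = 0.095). Without aged replicate 2 it passed, at 0.69 (edgeR adjusted p = 0.023).

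The Rag stage, the smallest class, was set against the surrogate light chain stage in the same fit. Here 6 of the 10 genes rose (Ikzf3, Spib, Bach2, Ikzf1, Foxo1 and Ebf1) and 0 fell, beside 13.8% of 3026 genes passing in either direction and 5.75% (174 genes) rising, with 243 genes falling and a median of 1.02 log2 units over the 10 genes and -0.11 over all genes tested. Young replicate 1 had 6 Rag-stage cells and no sum at this stage. When cells with under 1000 genes were left out, Ikzf3 alone of the 6 kept its call. Only aged replicate 2, with 15 Rag-stage cells, then had a sum at this stage, so calls kept or lost there rest on 1 library.

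Spib held 573 and 803 CPM in the aged and 819 and 655 CPM in young replicates 2 and 3 at the Rag stage. All 4 values were above the highest of the surrogate light chain stage, 251 CPM, and the log2 fold change was 1.76 ± 0.23 (edgeR adjusted p = 2.3e-08). Bach2 held 1023 and 803 CPM in the aged and 758 and 436 CPM in the young libraries, a log2 fold change of 1.25 ± 0.22 (edgeR adjusted p = 1.7e-05) that was positive in all 4 libraries. Ikzf3 varied most, with 328 and 50.2 CPM in the aged and 212 and 0 CPM in the young libraries. The 0 came from 10 cells of young replicate 3 and allows up to 218 CPM (3 UMIs), so Ikzf3 was higher in 3 of 4 libraries, with a log2 fold change of 3.37 ± 0.52 (edgeR adjusted p = 1.4e-06).

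Foxo1 and Ebf1 also rose at the Rag stage. Foxo1 held 266 and 502 CPM in the aged and 606 and 291 CPM in the young libraries at the Rag stage, against 174 and 160 CPM in the aged and 229 and 112 CPM in the same young libraries at the surrogate light chain stage. It was higher in 4 of 4 libraries, by 1.05 ± 0.30 (edgeR adjusted p = 0.011). That call was lost in 4 of 11 alternatives. The value stood at 0.91 without young replicate 2, 0.88 without aged replicate 3 and 0.72 with no filter on low counts. With at least 1000 genes per cell, where aged replicate 2 alone held a Rag-stage sum, it was 0.49. Ebf1 held 7307 and 5367 CPM in the aged and 7125 and 6838 CPM in the young libraries, against 5582 and 4363 CPM in the aged and 4404 and 4534 CPM in the same young libraries. It too was higher in 4 of 4, by 0.40 ± 0.13 (edgeR adjusted p = 0.026), a call lost in 6 of 11 alternatives, among them leaving out young replicate 2 (0.31), aged replicate 2 (0.37) or aged replicate 3 (0.41). With no filter on low counts the Ebf1 value was 0.04459 (edgeR adjusted p = 0.965), and with at least 1000 genes per cell it was 0.23. Ikzf1 rose by 1.25 ± 0.29 (edgeR adjusted p = 0.0017), a call lost without young replicate 2 (0.91, adjusted p = 0.118), with no filter (0.92) and with at least 1000 genes per cell (0.66). Pax5, Irf4, Tcf3 and Irf8 did not pass, with values of 0.72, 0.99, 0.30 and 0.27.

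Between later stages no change in the 10 genes passed the test. Between the Cd2/Ms4a1 and Rag stages their log2 fold changes ran from -0.37 (Foxo1) to 0.28 (Spib), 0 of 10 passed, and 2 of 3026 genes (0.0661%) did, 1 higher and 1 lower. Between the MHC class II and Cd2/Ms4a1 stages they ran from -0.51 (Foxo1) to 0.21 (Irf8), 0 of 10 passed, and 48 genes (1.59%) did, 28 higher and 20 lower. The genes that set these stages were not left out of either count of all genes. At an unadjusted p under 0.05 the first contrast held 0 of the 10 genes and the second 2, and DESeq2 called 2 and 28 genes in all. Ebf1 averaged 6659 ± 883 CPM (SD, n = 4) at the Rag stage, which lacks young replicate 1, the lowest library at the other stages, and 5588 ± 998 CPM at the Cd2/Ms4a1 stage and 4341 ± 723 CPM at the MHC class II stage (n = 5 each). Spib averaged 712 ± 119, 723 ± 122 and 765 ± 154 CPM over the same stages, differences smaller than the spread between libraries.

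Markers of other cells were set beside these stages. The plasmacytoid dendritic cell list, whose lineage also uses Spib, Irf8 and Tcf4, summed to 165 to 298 CPM at the MHC class II stage and 451 to 636 CPM at the surrogate light chain stage. Its defining genes Siglech and Klk1 were at 0 in both stages of every library. At the MHC class II stage 2 to 4 of its 8 genes had a UMI, and at the surrogate light chain stage 2 to 5. Conventional dendritic cell and monocyte markers summed to 331 to 529 CPM at the MHC class II stage and 467 to 556 CPM at the surrogate light chain stage. Xcr1, Clec9a and Itgax were at 0, and the sums came from the other genes of that list. Those genes are not given singly here, so no absence of such cells is read from the zeros. The part of such cells in the results was not tested.

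Other genes of the network were counted from lists. Of 42 other lymphoid and progenitor regulators, 30 were tested, and 7 rose and 5 fell at the MHC class II stage against the surrogate light chain stage, beside 19.4% of all genes called and 8.96% rising. Klf2, a quiescence and homing factor, rose by 2.24 ± 0.19 (edgeR adjusted p = 1.7e-15), and Lef1, a Wnt pathway factor of early B and T cells, fell by 2.88 on the log2 scale (edgeR adjusted p = 2.3e-17). Hhex, a homeobox regulator of progenitors, fell by 3.68, and Erg, an ETS factor of stem cells, fell to 0 UMIs in all 5 libraries. Of 14 genes known as targets of Ebf1 and Pax5 and not used in gating, 9 were tested, 6 rose and 2 fell. Ly6d, a surface marker of B-committed progenitors, rose by 2.80, and Fcrla, an Fc receptor-like protein of B cells, rose by 2.34. Lef1, which is on this list too, was among those that fell, by 2.88. Of 14 targets of Foxo1, 10 were tested, 4 rose and 0 fell, namely Klf2, Btg1 (1.12), Ccr7 (3.08) and Il7r (1.01, the interleukin 7 receptor). The median of the 30 other regulators was -0.02, that of the 9 targets of Ebf1 and Pax5 was 0.73 and that of the 10 Foxo1 targets 0.26, against -0.02 for all genes.

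Dividing B-lineage cells held less Ebf1, Spib, Foxo1 and Pax5 RNA than resting ones as a share of all RNA, in 5 of 5 libraries, while Tcf3, Ikzf1 and Irf4 did not pass the test. Of the 10 genes, 4 fell and 0 rose in a fit of 10 sums with library as a block, beside 22.5% of 6076 genes passing in either direction and 9.43% (573 genes) falling, with 792 genes rising. The median was -0.58 log2 units for the 10 genes and -0.05 for all genes. A share of RNA can fall because a cell makes less of it or more of other RNA, and these cannot be told apart here.

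**Figure D2:**
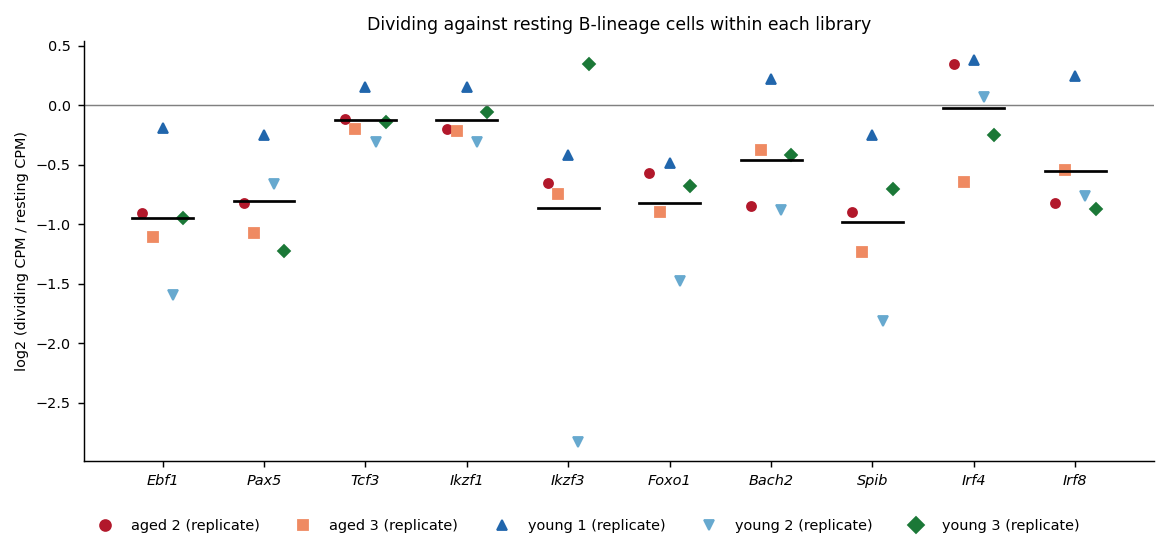
Log2 ratio of the CPM level in dividing over resting B-lineage cells within each of 5 libraries, with black bars at the mean over libraries and a grey line at no difference. All 5 libraries lie below the line for Ebf1, Pax5, Foxo1 and Spib, and young replicate 1 is the highest library for 9 of 10 genes, at -0.19 for Ebf1 and 0.25 for Irf8.

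Ebf1 stood at 3151 and 2220 CPM in dividing cells of the aged and 2221, 1796 and 2520 CPM in those of the young libraries. Resting cells held 5885 and 4774 CPM in the aged and 2529, 5420 and 4871 CPM in the young libraries. Young replicate 1 alone brought the classes into overlap, and the log2 fold change was -0.91 ± 0.15 (edgeR adjusted p = 0.0015), or -1.09 without that library. Spib stood at 256 and 213 CPM in dividing cells of the aged and 193, 196 and 304 CPM in those of the young libraries, against 477 and 501 CPM in resting cells of the aged and 230, 689 and 496 CPM in those of the young libraries. The change was -0.92 ± 0.20 (edgeR adjusted p = 0.0064). Ebf1 and Spib passed under all 12 alternatives of this contrast.

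Foxo1, which promotes exit from the cell cycle, held 135 and 110 CPM in dividing cells of the aged and 89.6, 119 and 111 CPM in those of the young libraries, against 200 and 205 CPM in resting cells of the aged and 125, 330 and 178 CPM in those of the young libraries. It fell by 0.78 on the log2 scale (SE 0.19, edgeR adjusted p = 0.011), and the call was lost without young replicate 2 (-0.63, adjusted p = 0.056) and with stricter gates. Pax5 fell by 0.67 (SE 0.18, edgeR adjusted p = 0.019). That call was lost in 4 of 12 alternatives, among them leaving out young replicate 3 (-0.62), aged replicate 2 (-0.67) or aged replicate 3 (-0.63). Over the 12 alternatives the Pax5 value ran from -0.79 to -0.54. Bach2 (-0.41), Ikzf3 (-0.74) and Irf8 (-0.48) did not pass with all libraries, at adjusted p of 0.118, 0.125 and 0.079 in edgeR. Without young replicate 1 these 3 passed, at -0.61, -0.95 and -0.68, and the number of genes called was 2022 in place of 1365. Tcf3 (-0.08), Ikzf1 (-0.08) and Irf4 (0.10) lay within 0.10 of no change, with SE of 0.13, 0.15 and 0.20.

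Dividing and resting cells also differed in stage, since 83 of 624 dividing and 402 of 1270 resting cells were at the surrogate light chain stage. No stage was set for 335 of the dividing and 269 of the resting cells. Within that stage only aged replicate 2 and young replicate 1 had 10 cells of both kinds, which leaves 1 residual degree of freedom. Ebf1 held 3332 CPM in dividing and 5582 CPM in resting cells of aged replicate 2, and 1380 CPM in dividing and 2433 CPM in resting cells of young replicate 1. It fell by 0.74 (SE 0.17, edgeR adjusted p = 0.0044) and was the 1 called of 9 tested, beside 6.59% of 4782 genes called and 2.57% lower. That call was lost with no filter on low counts and with no library term. Foxo1 (-0.76 ± 0.34), Spib (-0.40 ± 0.33), Bach2 (-0.25 ± 0.23) and Tcf3 (-0.23 ± 0.21) pointed down in both libraries and did not pass. Pax5 (-0.04 ± 0.26), Ikzf1 (-0.15 ± 0.32), Irf8 (-0.23 ± 0.25) and Irf4 (0.24 ± 0.40) were higher in 1 library and lower in the other. They did not pass either, so the lower Pax5 of all dividing cells was not seen within this stage. Ikzf3 was below the filter on low counts.

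The dividing cells of young replicate 1 were many enough to be split by stage, as a description of 1 library with exact Poisson intervals that cover counting error only. Of its 518 dividing cells, 296 had no stage and 7 passed both limits, and these are left out of the split. Spib stood at 73.8 CPM (95% interval 53.2 to 99.7) in 54 cells of the surrogate light chain stage, 265 CPM (182 to 372) in 34 Rag-stage cells, 317 CPM (244 to 404) in 51 Cd2/Ms4a1-stage cells and 262 CPM (207 to 326) in 76 MHC class II-stage cells. Bach2 stood at 216 CPM (180 to 258), 562 CPM (438 to 710), 593 CPM (492 to 710) and 596 CPM (512 to 690) in the same order. In each case the first stage lay below the other 3 and their intervals overlapped with each other. Irf4 was also lowest at the first stage by CPM, with 66.7 CPM (47.2 to 91.6) at the first stage and 203 to 249 CPM at the others, and so was Ebf1, with 1380 CPM (1286 to 1480) and 2962 to 3071 CPM. Irf8 was not, at 183 CPM (149 to 221) and 169 to 223 CPM. The cells of the first stage were also deeper, with a median of 8927 UMIs against 3497 to 3653 at the other 3 stages, and the part of depth and doublets was not tested. After thinning to 1000 UMIs the share of cells with a UMI kept the first stage lowest for Spib (7.41%, against 14.7% to 27.5%) and Bach2 (14.8%, against 44.1% to 48.7%). For Irf4 it did not, at 20.4% against 8.82% to 19.6%, so no order is read for Irf4.

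Among the other regulators, 17 of 34 tested fell and 1 rose in dividing cells, with a median of -0.74 against -0.05 for all genes, of which 22.5% were called and 9.43% fell. Sox4, a progenitor factor, fell by 1.12 (edgeR adjusted p = 0.0023), Satb1, a chromatin organizer, by 1.21, and Cbfb, the partner of the Runx factors, was 1.05 higher. Of the Foxo1 targets 5 of 11 fell and 0 rose (median -0.81), among them Btg1, an antiproliferative gene (-1.37 ± 0.18, edgeR adjusted p = 0.00038), Pik3ip1 (-1.53), S1pr1 (-1.79) and Cited2 (-0.83). Of the targets of Ebf1 and Pax5 4 of 10 fell and 1 rose (median -0.51), among them Ly6d (-2.07) and Lef1 (-0.71), and the gene that rose was Cd24a (0.69 ± 0.11).

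Myeloid cells of the same sort held less RNA of 9 of the 10 genes than B-lineage cells, and Irf8 was the exception, with a log2 ratio of -0.07 (95% interval -0.28 to 0.13). Only young replicate 1 held 10 or more of them, 104 cells, so there is no test, and intervals cover counting error only. Of the 10 genes, 9 were lower in myeloid than in B-lineage cells with intervals that did not overlap, beside 23.6% of 10231 genes lower and 38.8% apart in either direction.

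**Figure D3:**
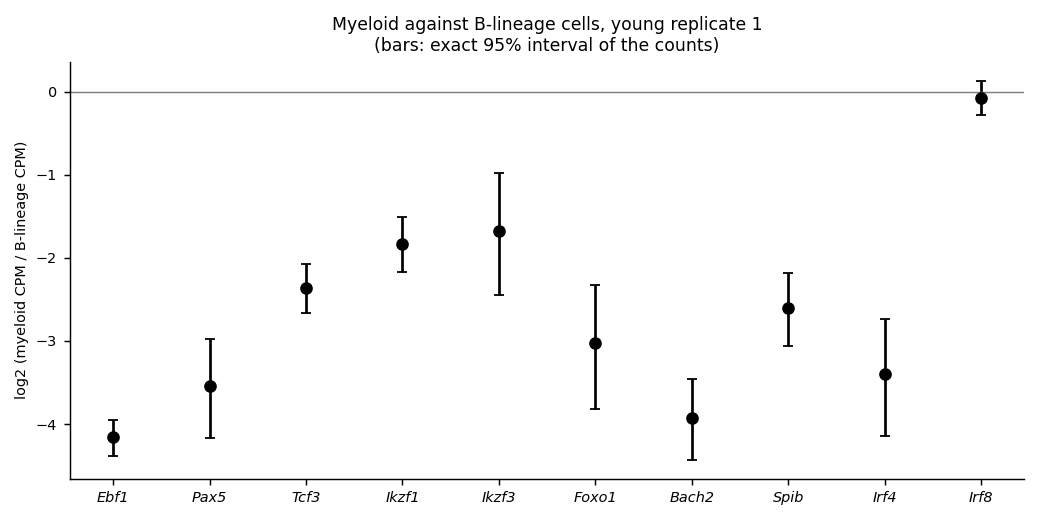
Log2 ratio of the CPM level in 104 myeloid over 697 B-lineage cells of young replicate 1, with exact 95% intervals of the counts and a grey line at no difference. Irf8 lies on the line at -0.07 and the other 9 genes lie between -4.16 (Ebf1) and -1.67 (Ikzf3).

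Irf8 held 192 CPM (95% interval 169 to 216) in myeloid and 201 CPM (187 to 217) in B-lineage cells. After thinning, 24.0% of myeloid cells (exact interval 16.2 to 33.4) and 17.1% of B-lineage cells (14.4 to 20.1) had an Irf8 UMI. The 6 myeloid cells in which monocyte genes led held 509 CPM (329 to 751), the 91 in which granule genes led 184 CPM (161 to 208), and the 7 led by basophil genes had 1 UMI, 32.2 CPM (0.816 to 180). The intervals of the monocyte-led and the granule-led cells do not overlap. Pax5 and Ebf1 differed in the same direction between these cells, though not every B-lineage gene did. The intervals of Spib, Irf4, Foxo1 and Ikzf3 overlapped, and Foxo1 and Ikzf3 had 0 UMIs in the monocyte-led cells. Pax5 stood at 122 CPM (44.8 to 266) in the 6 monocyte-led cells and 14.2 CPM (8.54 to 22.1) in the granule-led cells, and Ebf1 at 407 CPM (248 to 628) in the monocyte-led and 116 CPM (98.2 to 135) in the granule-led cells. Their part in the Irf8 difference was not tested.

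Ebf1 held 128 CPM (110 to 148) in myeloid and 2289 CPM (2239 to 2340) in B-lineage cells, a 17.9-fold difference. Bach2 was 15.2-fold, Pax5 11.6-fold, Irf4 10.5-fold and Foxo1 8.14-fold higher in B-lineage cells. Ebf1 UMIs were found in 11.5% of myeloid and 87.2% of B-lineage cells after thinning, at median depths of 13710 and 3727 UMIs before it. The 10 B-lineage genes that set the gate were read in the same way. They stood in myeloid cells at 0% to 15.02% of their B-lineage level, with a median of 6.15% and Cd79a at 6.96%. Beside them, Ebf1 (5.60%), Bach2 (6.59%), Pax5 (8.60%), Irf4 (9.51%) and Foxo1 (12.3%) lay within the range. Spib (16.4%), Tcf3 (19.4%), Ikzf1 (28.1%), Ikzf3 (31.4%) and Irf8 (95.1%) lay above it. The gate itself selects B-lineage cells for RNA of those 10 gate genes, which lowers their percentages, so the range is no yardstick for genes that were not gated on. The part of free RNA and doublets in the low levels was not tested. Ikaros and E2A proteins are known to be used widely in blood cell progenitors. Ebf1 also held 33 UMIs in the 21 endothelial cells of all libraries, 565 CPM (389 to 793).

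No difference between aged and young libraries passed the test for any of the 10 genes. In resting B-lineage cells 0 of 7058 genes passed (0.0%), with 99 at an unadjusted p under 0.05 and 0 called by DESeq2. The log2 fold changes of the 10 genes, aged over young, ran from -0.56 ± 0.29 (Irf4) to 0.22 ± 0.36 (Ebf1), and the smallest unadjusted p among them was 0.090.

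**Figure D4:**
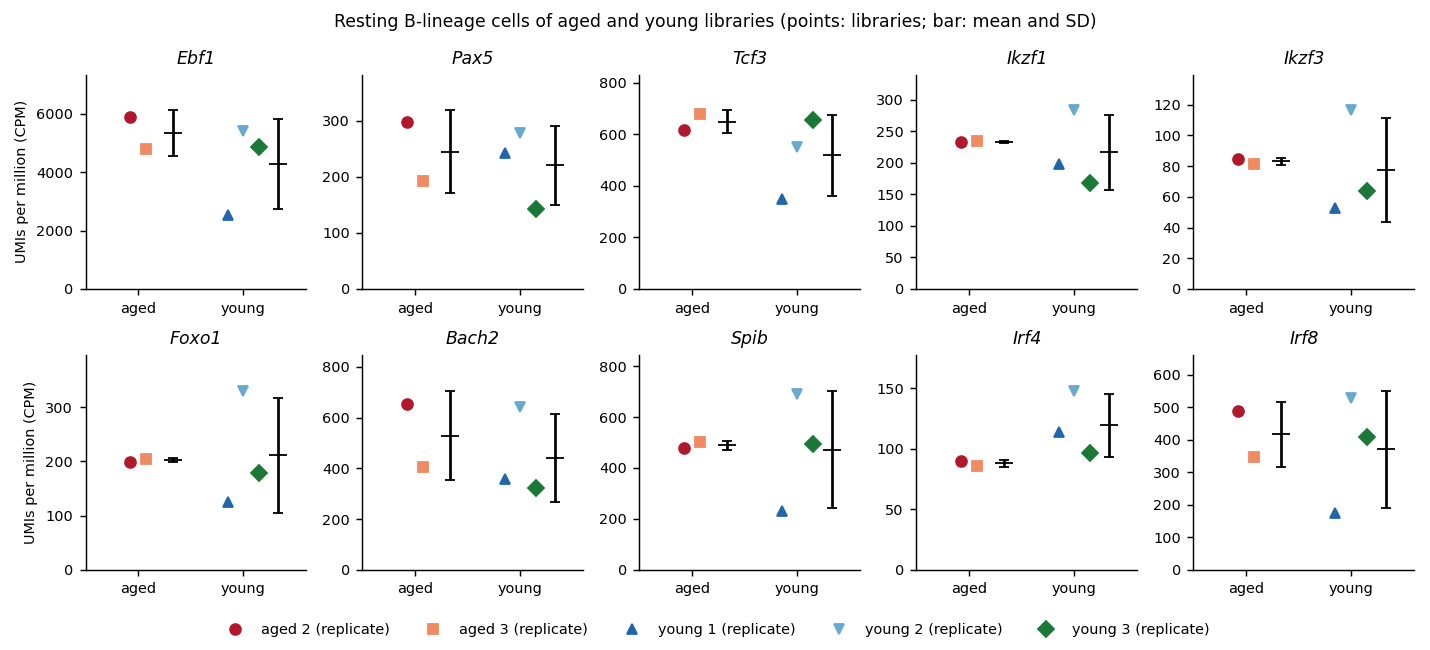
Level of each of the 10 genes (CPM, linear axis from 0) in resting B-lineage cells of the 2 aged and the 3 young libraries, each point a library and each bar the mean with its SD. The groups overlap for 9 of 10 genes and do not for Irf4, whose aged libraries lie at 89.9 and 85.8 CPM and whose young ones lie at 96.5 CPM or above.

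Ebf1 averaged 5330 ± 786 CPM in aged (SD, n = 2) and 4273 ± 1535 CPM in young libraries (SD, n = 3), with young replicate 1 lowest at 2529 CPM. Its log2 fold change, aged over young, ran from 0.0053 to 0.36 when each library was left out in turn. Irf4 stood at 89.9 and 85.8 CPM in the aged and 114, 148 and 96.5 CPM in the young libraries. Irf4 was the 1 gene of the 10 whose groups did not overlap, beside 14.2% of 3069 genes with a mean of at least 50 CPM, and its edgeR adjusted p was 0.999. The widest spread was within the young group: Irf8 ranged from 176 CPM in replicate 1 to 528 CPM in replicate 2, and Spib from 230 to 689 CPM in the same libraries, 3.00-fold in both.

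In dividing cells 0 of 2899 genes passed (0.0%), with 109 at an unadjusted p under 0.05 and 0 by DESeq2, and the 9 genes of the list that were tested ran from -0.79 (Irf4) to 0.26 (Tcf3). The difference between the MHC class II and surrogate light chain stages was compared between aged and young libraries by an interaction term, in which 0 of 3111 genes passed (0.0%), with 107 at an unadjusted p under 0.05 and 0 by DESeq2. The 10 genes ran from -0.64 (Pax5) to 0.60 (Irf4), and the smallest unadjusted p among them was 0.160. The share of resting cells with a UMI was compared after thinning. Tcf3 was found in 47.1% and 48.7% of aged and 37.4%, 40.6% and 44.0% of young cells, with groups that did not overlap. Of 3011 genes with a mean share of at least 5%, 15.8% had groups that did not overlap. The two-sided exact permutation p for Tcf3 was 0.2. It was taken as 2 times the smaller one-sided p, and 0.2 is the smallest value that 2 against 3 libraries allow in this form. Without thinning Tcf3 overlapped and 0 of the 10 genes were apart, beside 4.45% of 5818 genes. In dividing cells the thinned shares did not overlap for Ebf1, at 87.0% and 90.6% in aged and 86.5%, 73.1% and 80.0% in young libraries, and for Foxo1, at 13.04% and 21.9% in aged and 9.07%, 3.85% and 12.0% in young libraries, beside 20.6% of 3123 genes. Without thinning both overlapped and the difference for Ebf1 turned sign, to a mean of 95.7% in aged and 98.5% in young libraries. Tcf3 was then the 1 gene of the 10 that was apart in dividing cells, at 91.3% and 90.6% in aged and 85.1%, 88.5% and 84.0% in young libraries, beside 11.5% of 7432 genes.

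Across the 24 library-by-class sums of B-lineage cells (4 resting stages and dividing cells), pairs of the 10 genes varied together to different degrees. These sums share libraries and cells of neighbouring stages, so the correlations of log2 CPM are descriptions. Spib with Bach2 gave r = 0.79, Ebf1 with Foxo1 0.76 and Bach2 with Ikzf1 0.74. Irf4 with Tcf3 was lowest, at -0.28.

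**Figure D5:**
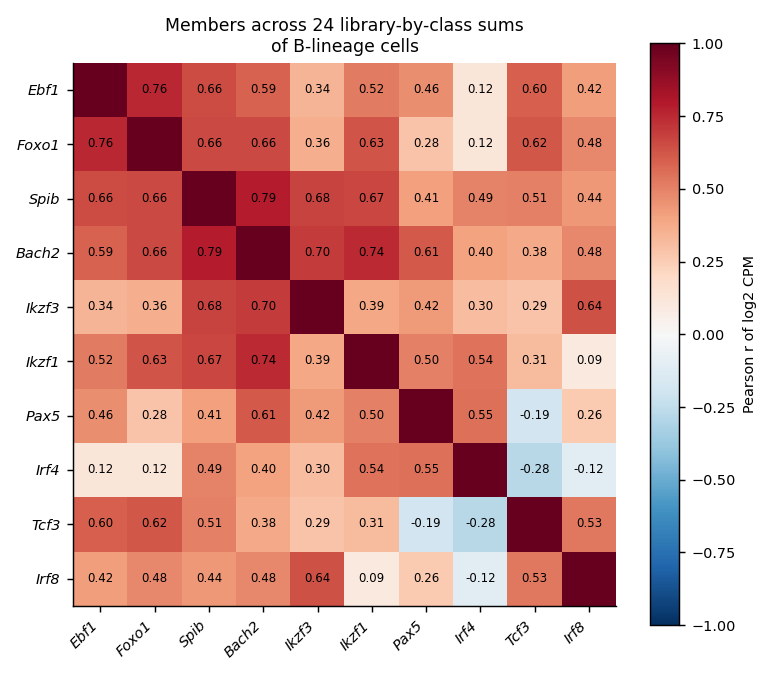
Pearson correlation of log2 CPM between each pair of the 10 genes over 24 library-by-class sums of B-lineage cells, in red for positive and blue for negative values. Ebf1, Foxo1, Spib and Bach2 correlate at 0.59 to 0.79 with each other, and Irf4 and Tcf3 at -0.28.

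The myeloid sum of young replicate 1 was then added, 25 sums in all. Each gene was set against 4158 genes whose log2 CPM averaged 5 or more. In that library Ebf1 stood at 128 CPM in the myeloid and 2289 CPM in the B-lineage cells. The part of this 1 myeloid sum in the correlations was not tested. Closest to Ebf1 were Bcl7a (0.97), Cd79a (0.97, a gene of the B-lineage gate) and Plekha2 (0.96). Closest to Spib were Dnajc7 (0.97), Ly6d (0.95) and Rhoh (0.95), and closest to Bach2 were Pafah1b3 (0.94), Cecr2 (0.92) and Cxcr4 (0.90). Tcf3 was closest to Blnk (0.93), which helped set the B-lineage gate, and then to Adgre5 (0.92) and H2-Q4 (0.91). Foxo1 was closest to Tifa (0.92), Pax5 to Lbh (0.87), Ikzf3 to Rel (0.88), Ikzf1 to Atf7ip (0.86), Irf8 to Zfp263 (0.87) and Irf4 to Pou2af1 (0.82), the B cell coactivator OBF-1.

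A single cell showed only part of the set. At 1000 UMIs a resting B-lineage cell held UMIs of a mean of 3.59 and 3.34 of the 10 genes in the aged and 2.73, 3.86 and 2.99 in the young libraries, against 0.548 in the myeloid cells of young replicate 1. At the Rag stage the means were 4.80 and 3.67 in the aged and 5.12 and 3.10 in young replicates 2 and 3, and at the surrogate light chain stage they were 3.06 and 2.76 in the aged and 3.00 and 2.50 in the same young libraries.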

How the data were processed

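Single-cell libraries (10x Genomics, 3 prime) were deposited by the authors as raw UMI counts per gene and barcode, made with Cell Ranger on mm10 per the submitters' processing notes. Its version is not given in the sources used here. The notes also name R 3.5.2, edgeR 3.24.3 and DESeq2 1.22.2 with no stated role.

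From these counts, 2116 of 3384 barcodes were kept (at least 500 genes and 1000 UMIs, at most 10% mitochondrial UMIs). Scrublet marked 58 kept cells (2.74%) as doublets, and they were left in and removed in an alternative. Cells were thinned to 1000 UMIs for gating, and full counts were summed by library and class of at least 10 cells. The sums were tested with edgeR 4.0.16 quasi-likelihood (R 4.3.3; TMM, filterByExpr, Benjamini-Hochberg over all genes tested, threshold 0.05), with library as a block within libraries and no block between ages. SE is the log2 fold change divided by the root of F. Intervals and the limit of 3 UMIs for a count of 0 cover counting error only. Correlations used log2 CPM with a prior count of 2. The code was tested on simulated data. DESeq2 1.42.0, other filters, gates and clusters (scanpy 1.11.5), and leaving out each library were the alternatives. The 10 genes, the lists and the tests were chosen with earlier results of these data known. The genes named are the 10, the 3 most correlated with each, and up to 4 of smallest p in each list and comparison.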

Additional observations from a re-analysis of the deposited data

Results flagged for a closer look

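Between the Cd2/Ms4a1 and the Rag stage, Bach2 and Irf4 moved in opposite directions in aged and young libraries. They were picked for that difference, which was not tested. The share of all genes apart in this way is not given here, so no result is read from it. For Bach2 the log2 ratio was -0.39 and -0.55 in aged replicates 2 and 3 and 0.04 and 0.21 in young replicates 2 and 3, a difference of -0.596 between the means of the age groups. For Irf4 it was 0.70 and 0.70 in the aged and -0.41 and -0.54 in the young libraries, a difference of 1.18. The Irf4 sums at the Rag stage rest on 15 UMIs in all, 4 and 1 of them in aged replicates 2 and 3. An interaction with age was fitted only between the MHC class II and surrogate light chain stages.

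Irf8 was also counted in cells that no comparison used. In the 81 cells of young replicate 1 that met no lineage gate it stood at 359 CPM (95% interval 312 to 410).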

How the results depend on the processing

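Across 15 alternatives, 488 of the values for single genes kept their direction and side of the threshold. Of the rest, 43 turned sign, 41 lost a call and 11 gained one. The 488 include fits of dividing cells within the surrogate light chain stage that could only repeat. There, leaving out young replicate 2, young replicate 3 or aged replicate 3 left the same data. For the MHC class II against surrogate light chain contrast, 300 genes passed with no library term (586 with it), and 438 to 565 when each library was left out. For Rag against surrogate light chain, 275 passed with no library term, 40 with at least 1000 genes per cell, and 227 to 388 without each library, lowest without young replicate 2 (272 without aged replicate 3; 417 in all). For Cd2/Ms4a1 against Rag, 7 passed with no filter on low counts, 1 with no library term, 1 with at least 1000 genes per cell, 4 with stricter gates, and 2 to 3 without each library. For MHC class II against Cd2/Ms4a1, 28 passed with DESeq2, 6 with no library term, 17 with at least 1000 genes per cell, 30 with stricter gates, and 24 to 61 without each library (24 without young replicate 2 or aged replicate 3, 29 without young replicate 3). For dividing against resting cells, 2623 passed with clusters and 777 to 2022 without each library (777 without young replicate 2, 811 without aged replicate 2, 783 without aged replicate 3). Within the surrogate light chain stage, 49 passed with DESeq2, 185 with no filter and 0 with no library term. For age, 49 genes passed with no filter in resting and 7 in dividing cells, 1 in the interaction, 0 to 3 in dividing cells and 0 to 2 in the interaction without each library. Without thinning, 0 of the 10 genes had shares in resting cells that did not overlap by age, against 1 with it. The causes were not tested.

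With the replicate number as a block, 21 genes passed by age in resting and 4 in dividing cells. Aged and young samples share only numbers 2 and 3. Deviations of same-numbered libraries from the mean of their age group correlated at 0.24 and 0.31 over genes. The deviations of the 2 aged libraries mirror each other, so these correlations are not independent of each other. The Xist-negative libraries are those numbered 2. With this block Ebf1 gave -0.002474, Ikzf1 0.03178, Ikzf3 -0.13 and Irf8 -0.22, signs opposite to those without it.

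Other signs turned as well, each at an adjusted p above 0.05. Between MHC class II and surrogate light chain stages Ebf1 was -0.02341 with DESeq2, -0.005531 with no filter, -0.006436 with at least 1000 genes per cell, -0.00993 with stricter gates, and -0.03257 to 0.06357 without each library, and Foxo1 was -0.00164 to 0.30. Between Rag and surrogate light chain stages Tcf3 was -0.04384 and Irf8 -0.05655 with no filter, which moved the median of all genes to -0.44. Between Cd2/Ms4a1 and Rag stages Bach2 was 0.19 with no filter and -0.20 to 0.0003486 without each library, and Irf4 -0.003509 with DESeq2, -0.24 with stricter gates and -0.15 to 0.40 without each library. In dividing cells Ikzf1 was 0.03819 with at least 1000 genes per cell, and Irf4 -0.22 with stricter gates and -0.02357 with clusters. Within the surrogate light chain stage Pax5 was 0.04506 without doublets and 0.001379 with at least 1000 genes per cell. By age, Pax5 was -0.005036 and Ikzf3 -0.00663 with DESeq2, Ikzf3 -0.31 with at least 1000 genes per cell and Spib 0.07175 with stricter gates. Without each library in turn the age values were -0.27 to 0.26 (Pax5), -0.16 to 0.15 (Ikzf1), -0.14 to 0.33 (Ikzf3), -0.36 to 0.24 (Foxo1), -0.17 to 0.43 (Bach2), -0.31 to 0.27 (Spib) and -0.21 to 0.35 (Irf8). The causes were not tested.

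The cluster highest in MHC class II had 10 cells in only 1 library and gave no value, so the next cluster was used, an alternative chosen after seeing the data. Stricter gates left no fit for dividing cells within the surrogate light chain stage. Depth limits Ikzf3 and Irf4 most, with 22 and 84 UMIs at the surrogate light chain stage.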
